A study of Sus scrofa with 7 samples.

Results

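Signalling through the kinases RAF, MEK and ERK switches on genes, and the products of many of them dampen the same pathway. The RNA of 10 genes that respond to this signalling, not all of them dampers, was followed in porcine cell lines from the early embryo. DUSP4, DUSP5 and DUSP6 encode dual-specificity phosphatases that dephosphorylate ERK. SPRY1, SPRY2 and SPRY4 encode Sprouty proteins, and SPRED1 and SPRED2 encode Sprouty-related proteins, both of which act on the pathway upstream of ERK. ETV4 and ETV5 encode ETS-family transcription factors whose transcription rises with fibroblast growth factor (FGF) and ERK signalling, and they serve together with DUSP6 and the Sprouty genes as common readouts of it. In the mouse blastocyst, FGF and ERK signalling favours the primitive endoderm, the source of extra-embryonic endoderm (XEN) cells, over the naïve epiblast, and MEK inhibitors are part of many media for naïve stem cells. The genes were found by their symbols, and all 10 were present with 1 row each among the 29510 genes listed.

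RNA was sequenced from 3 lines of porcine XEN (pXEN) cells, 2 lines of naïve-like embryonic stem cells (nESCs) and 2 lines of primed embryonic stem cells (pESCs), with 1 library per line. The pXEN cells and nESCs were derived from the inner cell mass, and the labels give the pESCs as converted from nESCs, while the study's text also speaks of primed cells derived from the embryo. The grouping follows the labels. Which nESC line each pESC line came from is not given in the sources used here, so the ESC lines may not be independent. Cells were taken at passage 26 for pXEN lines 1 and 2, 23 for pXEN line 3, 21 and 22 for the nESC lines and 20 for each pESC line. The pXEN medium held fetal bovine serum, serum replacement, LIF, CHIR99021 (a GSK3 inhibitor), (S)-(+)-dimethindene maleate, minocycline and Y27632. The nESC medium held FGF, LIF, the MEK inhibitor PD0325901, CHIR99021, SB431542 (an inhibitor of TGFβ family receptors) and doxycycline. The pESC medium held activin A, bFGF, EGF and LIF and no inhibitor. Fetal bovine serum is not listed for the nESC or pESC medium, while serum replacement is listed for both. The pXEN cells and nESCs grew on mouse embryonic fibroblasts and the pESCs on STO cells, a mouse fibroblast line. Cell type and medium changed together in every comparison, so their parts in any difference cannot be told apart.

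The libraries held 10408164 to 12995720 counts on genes in total, and 3 counts, taken as the floor of detection for counting error only, correspond to 0.231 to 0.288 CPM (counts scaled by the library total). The endoderm markers summed to 1690 to 1966 FPKM (fragments scaled by gene length and library total) in the pXEN lines, 13.5 and 13.6 in the nESC lines and 86.7 and 88.6 in the pESC lines. Not every marker followed the naïve-like label, since NANOG, DPPA5 and UTF1 were at or near 0 in the nESC lines. POU5F1 was at or near 0 in all 7 libraries, those of pESCs included, so it does not set the cell types apart. By immunofluorescence, RT-PCR and western blot, the study reports OCT4 (the POU5F1 product), SOX2 and NANOG as present in nESCs but not in pXEN cells. The NANOG levels measured here ran the other way, as given below. SOX2 was at 102.1 and 125.9 FPKM in nESC lines 1 and 2, at 147.3 and 153.5 in the pESC lines and at 0 to 1.98 in the pXEN lines. The other pluripotency markers did not set the nESCs above the pXEN lines in the same way. LIN28A was at 121 and 118.2 FPKM in nESCs and 534.1 to 625.3 in pXEN cells, SALL4 at 33.8 and 37.7 against 90.4 to 115.7, and NANOG was at 4.50 to 15.5 in pXEN cells. ESRRB was at 1.18 and 0.801 FPKM in nESCs, 36.6 and 37.7 in pESCs and listed at 0 in pXEN cells. The 8 pluripotency markers summed to 636.8 to 760.2 FPKM in the pXEN lines, 258.1 and 282.9 in the nESC lines and 763.9 and 825.6 in the pESC lines. The 3 trophectoderm markers listed, of 5 looked up, summed to 44.6 and 41.0 FPKM in the pESC lines, 0.661 and 1.39 in the nESC lines and 0.222 to 0.979 in the pXEN lines. TFAP2C, at 40.4 and 37.0 FPKM, made up most of the pESC sum. CDX2, TFAP2C and GATA3 were each called higher in pESCs than in nESCs and lower in pXEN cells than in pESCs, so they moved with the pESC group, and their part in its results was not tested. pXEN line 2 stood apart from pXEN lines 1 and 3. Its 9 listed fibroblast markers summed to 790.7 FPKM against 565.8 and 534 in lines 1 and 3, 30.8 and 37.5 in the nESC lines and 148.5 and 189.1 in the pESC lines. FBLN1 made up 513.6 to 548.4 FPKM of the sum in all 3 pXEN lines, and 8 of the 9 markers had over 3 counts in line 2, against 5 and 7 in lines 1 and 3. The other markers set line 2 apart, with COL1A1 at 143.7 against 16.1 and 14.8 and COL3A1 at 77.5 against 0.426 and 3.87. This line also held 30 counts of SOX2 against 0 in lines 1 and 3. Over the 14 genes listed on chromosome Y it held 38 counts, against 1 and 3 in lines 1 and 3. The nESC lines held 11 and 4 such counts. The study reports an XX karyotype for the pXEN cells, and the source of the Y counts was not tested. The part of these differences between the pXEN lines in the results was not tested. Calls of the 10 genes that changed without this line are given with and without it, as are the printed counts of the pathway lists that it moved by over 1.5 times.

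The counts entered edgeR's quasi-likelihood F-test, in 1 model of the 7 libraries over the 17447 genes that passed a filter on low counts. A gene was called where the adjusted p (Benjamini-Hochberg over all of these genes) was below 0.05. All 10 genes were tested. SPRY1 and SPRY4 passed the filter only through the pESC lines, so their calls in comparisons with pESCs were favoured by the filter. The counts of calls and the medians below include them. The lines are the only replicates, and p-values measure the spread between lines.

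Most of the feedback and ETV genes were lowest in nESCs. In pESCs, 10 of the 10 were called higher than in nESCs, where 19.0% of all tested genes were called higher. SPRY1 and SPRY4, favoured by the filter, are among these 10. None of the 10 was called lower in pESCs, against 13.3% of all tested genes. In pXEN cells, 8 of the 10 were called higher than in nESCs, against 28.3% of all tested genes, and 0 were called lower, against 26.2%. The 8 include SPRY4, at 3, 3 and 7 counts in pXEN cells against 0 in nESCs. With only the 2 groups compared in the fit, 7 were called higher. In both comparisons, 0 of the 10 were lower at an unadjusted p below 0.05, and DESeq2 and limma also called 0 lower. Between pXEN cells and pESCs the calls were divided. SPRED1 was called higher in pXEN cells, where 23.9% of all tested genes were called higher. DUSP4, DUSP5, SPRY1 and SPRY4 were called lower in pXEN cells, where 24.4% of all tested genes were called lower. The median log2 fold change of the 10 genes was 4.54 for pESCs against nESCs, 3.57 for pXEN cells against nESCs and 0.08 for pXEN cells against pESCs, beside 0.01, 0 and −0.01 over all tested genes. With SPRY4, which had no count in nESCs, set at the floor there, the median for pXEN cells against nESCs was 3.21 and that for pESCs against nESCs did not move. The comparisons share libraries, so they are not independent of each other. In bulk RNA, fewer cells expressing a gene and less RNA per cell cannot be told apart.

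**Figure D1:**
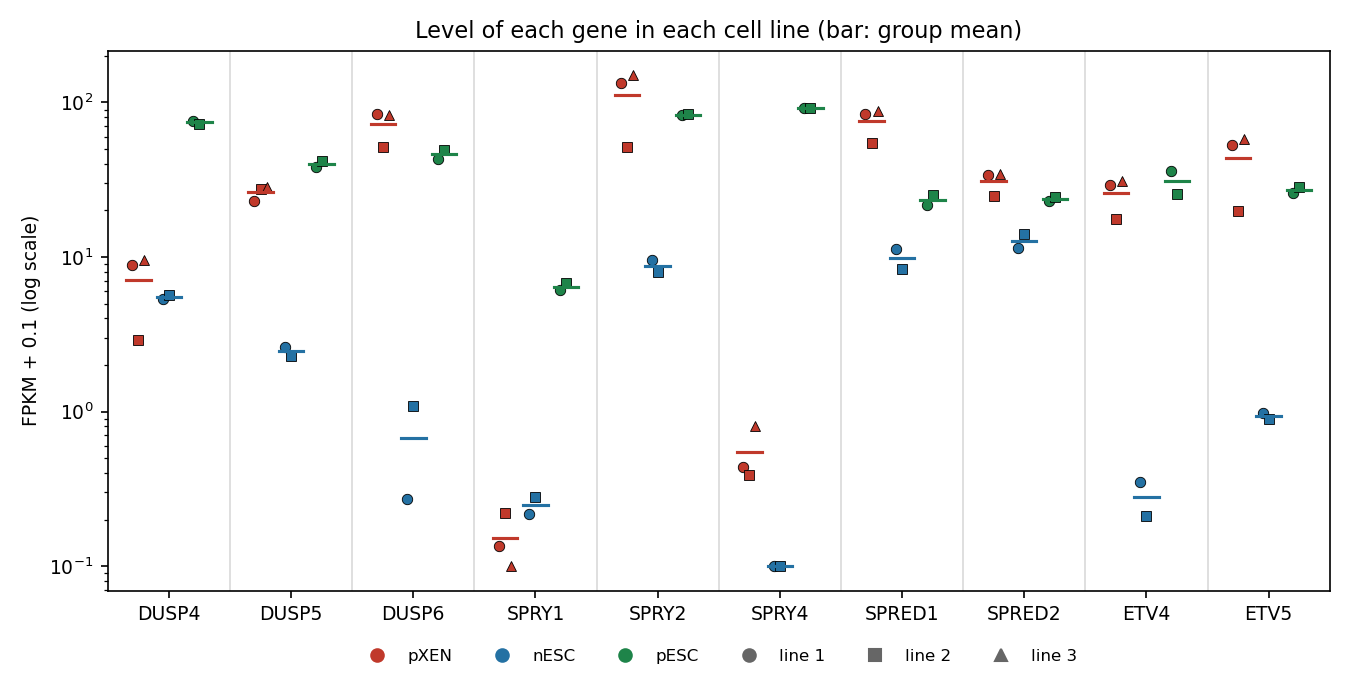
Level of the 10 genes in each of the 7 cell lines, as FPKM + 0.1 on a log axis, with 1 point per library, colour for the cell type, marker shape for the line and a bar at each group mean. DUSP6, ETV4 and ETV5 lay below 1 FPKM in both nESC lines and above 17 FPKM in every pXEN and pESC line, and SPRY4 was at 91.3 and 91.9 FPKM in the pESC lines and below 1 FPKM elsewhere.

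DUSP6 is an ERK-selective phosphatase of the cytoplasm. Its locus was listed on an unplaced scaffold of the Sscrofa10.2 build (GL894700.2, 52268-55482, plus strand). It was at 84.3, 51.1 and 82.7 FPKM in pXEN lines 1, 2 and 3, at 42.9 and 49.4 FPKM in pESC lines 1 and 2, and at 0.172 and 0.983 FPKM in nESC lines 1 and 2. The nESC values rested on 2 and 11 counts, against 518 to 871 counts in the other libraries. DUSP6 was higher in pXEN cells than in nESCs by 6.96 ± 0.48 on the log2 scale (SE, edgeR, adjusted p = 1.45e-05), and in pESCs than in nESCs by 6.29 ± 0.49 (adjusted p = 9.12e-05). Both sizes depended on nESC line 2, which held 11 of the 13 nESC counts. Without it they were 8.63 and 7.97, without nESC line 1 they were 6.17 and 5.52, and all of these were called. The ratio of the summed levels in CPM, pXEN over nESC, was 110, with an exact counting interval of 64.3 to 207. Each pXEN line lay above both pESC lines, but the difference of 0.66 ± 0.30 (95% interval −0.02 to 1.35) missed the threshold (adjusted p = 0.0993). It was called without pXEN line 2 (0.86, adjusted p = 0.00472) and by DESeq2 (0.66, adjusted p = 0.044).

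DUSP5, a nuclear phosphatase of ERK, lies on chromosome 14 (131791153-131804261, plus strand). It was at 22.8, 27.6 and 28.2 FPKM in the pXEN lines, 38.1 and 41.5 FPKM in the pESC lines and 2.52 and 2.17 FPKM in the nESC lines. The groups did not overlap, with nESCs lowest and pESCs highest. DUSP5 was 11.1-fold higher in pXEN cells than in nESCs (log2 3.47 ± 0.16, edgeR, adjusted p = 2.65e-06) and 16.8-fold higher in pESCs than in nESCs (4.07 ± 0.17, adjusted p = 6.26e-06). It fell by 0.60 ± 0.13 on the log2 scale from pESCs to pXEN cells (adjusted p = 0.0066), a call that was lost without pESC line 2 (0.54, adjusted p = 0.0658). Of the genes measured here at 1 CPM or more in pXEN cells, DUSP5 alone among the 10 was not lower in pXEN line 2 than in lines 1 and 3.

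DUSP4, a nuclear phosphatase that acts on ERK and other MAP kinases, lies on chromosome 15 (62906029-62923416, plus strand). It followed a different order. It was at 76.0 and 73.0 FPKM in the pESC lines, against 8.72, 2.80 and 9.41 FPKM in the pXEN lines and 5.22 and 5.55 FPKM in the nESC lines. The pXEN range enclosed the nESC values. DUSP4 was 13.7-fold higher in pESCs than in nESCs (log2 3.78 ± 0.49, edgeR, adjusted p = 0.001) and 10.7-fold higher in pESCs than in pXEN cells (adjusted p = 0.000345). Between pXEN cells and nESCs it differed by 0.36 ± 0.42 (95% interval −0.61 to 1.34, adjusted p = 0.496). Without pXEN line 2, the lowest of the 7 libraries for this gene, the difference was 0.75 and was called (adjusted p = 0.000172).

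SPRY2 was the most abundant Sprouty gene in pXEN cells. Its listed model on chromosome 11 is a single stretch of 948 bases (56943821-56944768, minus strand). It was at 132.6, 51.0 and 149.8 FPKM in the pXEN lines, 82.8 and 83.7 FPKM in the pESC lines and 9.47 and 7.85 FPKM in the nESC lines. The nESC lines were below all others, and pXEN line 2 was below the pESC lines while pXEN lines 1 and 3 were above them. SPRY2 was 12.7-fold higher in pXEN cells than in nESCs (log2 3.67 ± 0.46, edgeR, adjusted p = 0.000327) and 9.51-fold higher in pESCs than in nESCs (3.25 ± 0.47, adjusted p = 0.00172). Between pXEN cells and pESCs it differed by 0.42 ± 0.38 (95% interval −0.46 to 1.30, adjusted p = 0.395), and without pXEN line 2 by 0.77, which was called (adjusted p = 0.00039).

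SPRY4 was found almost entirely in pESCs. Its listed model on chromosome 2 is a single stretch of 900 bases (150066068-150066967, minus strand). It was at 91.3 and 91.9 FPKM in the pESC lines, from 1038 and 1116 counts. The pXEN lines held 3, 3 and 7 counts, and the nESC lines held 0. SPRY4 was at least 321-fold higher in pESCs than in nESCs, taking 3 counts per library as the level in nESCs (edgeR, adjusted p = 1.02e-05). It was 199-fold higher in pESCs than in pXEN cells (log2 fold change of pXEN against pESC −7.64 ± 0.27, adjusted p = 3.56e-06), and the ratio of summed CPM, 230, had an exact counting interval of 134 to 433. The test also called SPRY4 higher in pXEN cells than in nESCs (adjusted p = 0.00486). Since 2 of the 3 pXEN lines were at the floor and nESCs had no count, no fold is given for that call.

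SPRY1 was low throughout and was highest in pESCs. Its listed span on chromosome 8 (108000816-108196659, minus strand) overlaps 2 genes on the other strand that held 239 counts in all, and whether strand was used in counting is not given in the sources used here. It was at 5.98 and 6.66 FPKM in the pESC lines, from 215 and 256 counts. The pXEN lines held 1, 4 and 0 counts and the nESC lines 4 and 6. SPRY1 was 41.4-fold higher in pESCs than in nESCs (edgeR, adjusted p = 0.000633). Against pXEN cells, where it was at or near the floor, the ratio of summed CPM was 131, with an exact counting interval of 55.7 to 405 (adjusted p of the edgeR test = 7.94e-05). The difference between pXEN cells and nESCs, −1.40 ± 0.82, rested on 5 and 10 counts in all and was not called (adjusted p = 0.187). Without pXEN line 2, which held 4 of the 5 counts, it was −2.88 and was called (adjusted p = 0.0227).

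SPRED1 and SPRED2, whose proteins bring the RAS GTPase-activating protein neurofibromin to the membrane, had the smallest differences between pESCs and nESCs among the 10 genes. SPRED1 lies on chromosome 1 (148442730-148497704, minus strand) and was at 84.4, 54.4 and 88.5 FPKM in the pXEN lines, 21.5 and 25.3 FPKM in the pESC lines and 11.2 and 8.28 FPKM in the nESC lines. The pXEN lines were all above the pESC lines, and these above the nESC lines. SPRED1 was 7.73-fold higher in pXEN cells than in nESCs (log2 2.95 ± 0.26, edgeR, adjusted p = 4.64e-05) and 3.26-fold higher than in pESCs (1.70 ± 0.24, adjusted p = 0.000713). In pESCs it was 2.38-fold higher than in nESCs (1.25 ± 0.26, adjusted p = 0.00865), a call that was lost without nESC line 2 (adjusted p = 0.0643) or without pESC line 2 (adjusted p = 0.0582).

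SPRED2 lies on chromosome 3 (80411733-80444992, plus strand) and was at 33.8, 24.9 and 34.5 FPKM in the pXEN lines, 23.1 and 24.3 FPKM in the pESC lines and 11.3 and 14.01 FPKM in the nESC lines. It varied less between the cell types than the other genes. SPRED2 was 2.44-fold higher in pXEN cells than in nESCs (log2 1.29 ± 0.18, edgeR, adjusted p = 0.000535) and 1.85-fold higher in pESCs than in nESCs (0.89 ± 0.19, adjusted p = 0.00935). The latter call was lost without nESC line 1 (adjusted p = 0.0726) or without pESC line 2 (adjusted p = 0.0593). Between pXEN cells and pESCs it differed by 0.40 ± 0.17 (95% interval 0.01 to 0.79, unadjusted p = 0.0477 and adjusted p = 0.0878 in the edgeR fit), and without pXEN line 2 by 0.54, which was called (adjusted p = 0.00545).

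ETV4 and ETV5 were below 1 FPKM in nESCs and at 17.6 to 57.8 FPKM in the other cells. ETV4 lies on chromosome 12 (19893847-19910598, minus strand) and was at 29.0, 17.6 and 31.1 FPKM in the pXEN lines, 36.0 and 25.5 FPKM in the pESC lines and 0.248 and 0.110 FPKM in the nESC lines, from 7 and 3 counts. The pXEN and pESC values overlapped. ETV4 was higher than in nESCs by 7.12 ± 0.46 in pXEN cells (edgeR, adjusted p = 9.81e-06) and by 7.36 ± 0.47 in pESCs (adjusted p = 3.55e-05) on the log2 scale, and by 7.79 and 8.04 without nESC line 1. The corresponding ratios of summed CPM were 124 (exact counting interval 67.2 to 259) and 166 (89.8 to 346). Between pXEN cells and pESCs ETV4 differed by −0.24 ± 0.26 (95% interval −0.85 to 0.36, adjusted p = 0.483).

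ETV5 was listed on an unplaced scaffold (GL893748.2, 49328-73288, minus strand). It was at 53.3, 19.7 and 57.8 FPKM in the pXEN lines, 25.7 and 28.3 FPKM in the pESC lines and 0.875 and 0.789 FPKM in the nESC lines. ETV5 was 51.9-fold higher in pXEN cells than in nESCs (log2 5.70 ± 0.54, edgeR, adjusted p = 7.01e-05) and 32.0-fold higher in pESCs than in nESCs (5.0 ± 0.54, adjusted p = 0.000433). pXEN line 2 was below the pESC lines and pXEN lines 1 and 3 were above them. The difference between pXEN cells and pESCs was 0.70 ± 0.39 (95% interval −0.20 to 1.59, adjusted p = 0.175), and without pXEN line 2 it was 1.05 and was called (adjusted p = 3.02e-05).

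**Figure D2:**
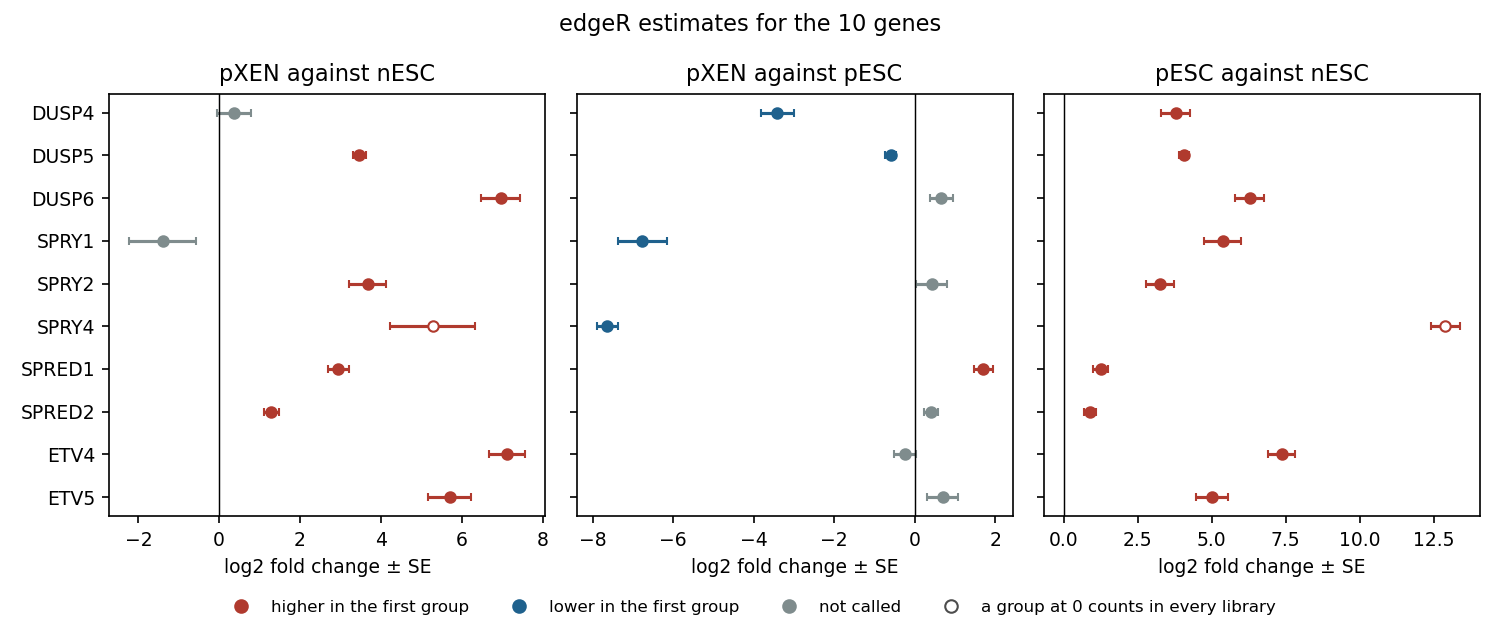
Log2 fold change ± SE of the 10 genes in the 3 comparisons, estimated by edgeR from the counts of 7 libraries. Red points were called higher and blue points lower in the first group, grey points were not called, and hollow points mark SPRY4 where nESCs had no count, so that the estimate is not a measured size. The 10 points lie right of 0 for pESCs against nESCs, and the points lie on both sides for pXEN cells against pESCs.

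In the SPRY and DUSP families the leading gene was not the same in the 3 cell types. Levels between genes are compared as FPKM, which depends on the listed gene length. Those of DUSP6, SPRY2, SPRY4, SPRED1 and SPRED2 (957, 948, 900, 1332 and 2337 bases) are multiples of 3, as coding lengths are. This alone does not show that a listed model holds coding sequence only. SPRY2 made up 99.2% to 99.7% of the summed SPRY1, SPRY2 and SPRY4 level in the pXEN lines and 97.8% to 98.8% in the nESC lines. In the pESC lines it made up 45.9% and 46.0%, and SPRY4 50.7% and 50.4%. The summed level was 112 ± 52.9 FPKM (SD, n = 3) in pXEN cells, 181 ± 1.56 (n = 2) in pESCs and 8.81 ± 1.10 (n = 2) in nESCs.

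Among the phosphatases, DUSP6 held 62.7% to 72.8% of the summed DUSP4, DUSP5 and DUSP6 level in the pXEN lines, but 27.3% and 30.1% in the pESC lines and 2.18% and 11.3% in the nESC lines. DUSP4 held 44.5% to 48.4% in the pESC lines and was the largest share in the nESC lines. The sums were 106 ± 21.3 FPKM in pXEN cells, 160 ± 4.85 in pESCs and 8.31 ± 0.56 in nESCs. SPRED1 exceeded SPRED2 in each pXEN line, with 68.6% to 71.9% of their sum. ETV4 and ETV5 together were at 69.5 ± 28.1 FPKM in pXEN cells, 57.7 ± 5.67 in pESCs and 1.01 ± 0.16 in nESCs. The largest of the 10 levels belonged to SPRY2, SPRED1 and DUSP6 in pXEN cells, to SPRY4, SPRY2 and DUSP4 in pESCs and to SPRED2, SPRED1 and SPRY2 in nESCs.

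**Figure D3:**
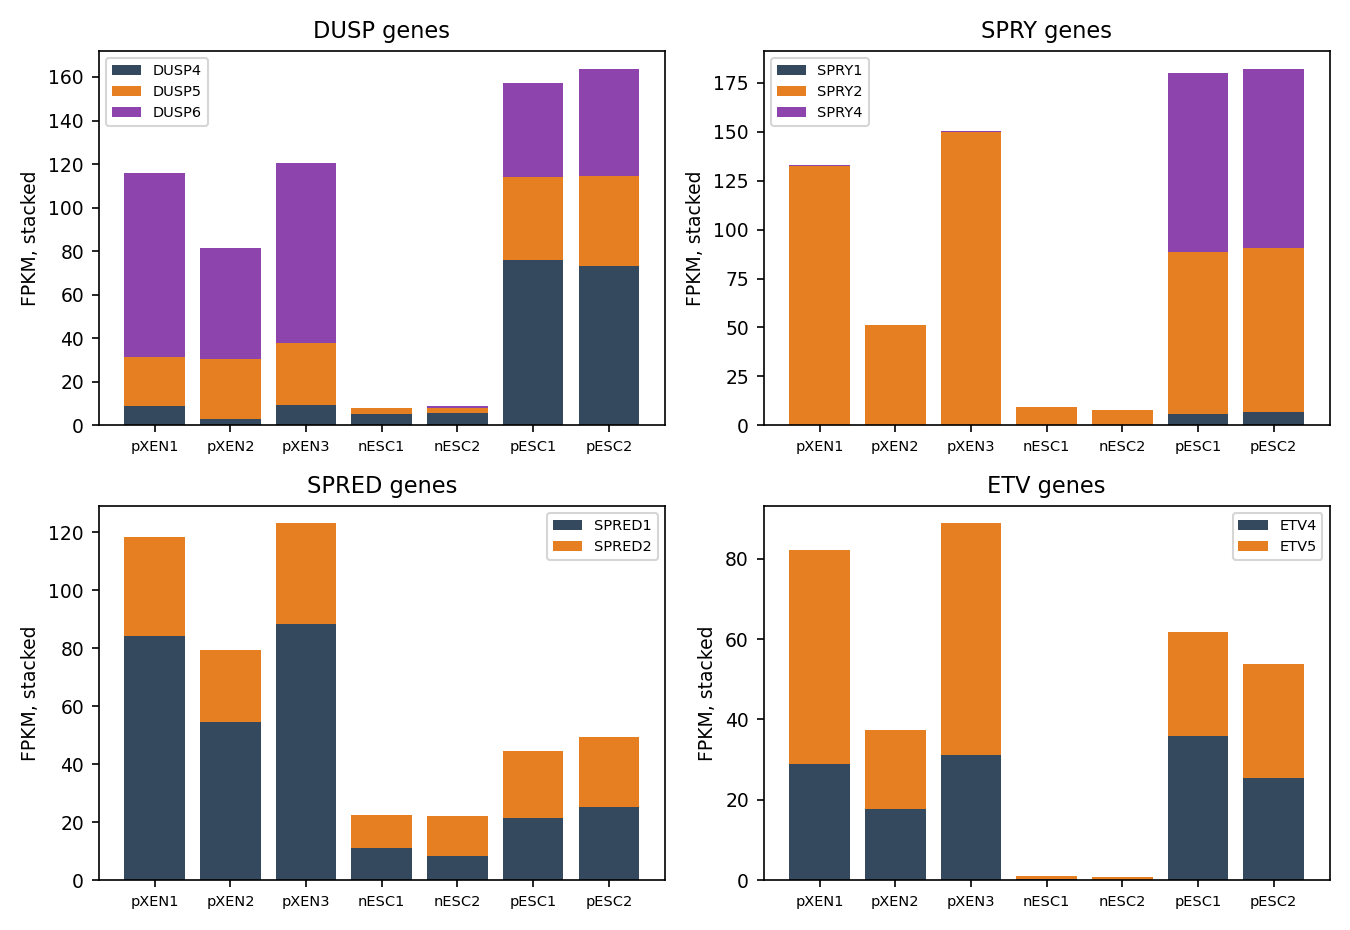
Stacked FPKM of the DUSP, SPRY, SPRED and ETV genes in each of the 7 libraries, on linear axes that start at 0 and differ between the panels. The SPRY bars of the pXEN lines consist almost only of SPRY2 and those of the pESC lines of SPRY2 and SPRY4 in near equal parts, and the nESC bars are the lowest in all 4 panels.

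pXEN line 2 had less RNA of most of these genes than pXEN lines 1 and 3. Of the 8 genes with a mean of at least 1 CPM in pXEN cells, 7 were lower in line 2 than the mean of lines 1 and 3. On the log2 scale of TMM-scaled CPM + 0.5, the difference was −1.65 for DUSP4, −1.47 for ETV5 and −1.44 for SPRY2. It was −0.75 for ETV4, −0.69 for DUSP6, −0.65 for SPRED1 and −0.44 for SPRED2, and 0.13 for DUSP5. Lines 1 and 3 differed from each other by at most 0.30 in these 8 genes. A difference below −1 was found for 3 of the 8 genes (37.5%) and for 653 of 14888 genes over the whole table (4.39%). With 1 library of this kind, these are descriptions of the libraries with no test.

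Of the list of 17 ERK target genes, 6 lay above 1 in the same line (35.3%), against 4.34% of all genes, and the median of the list was 0.38. FOS, a subunit of the transcription factor AP-1, was at 207.8 FPKM in pXEN line 2 against 22.4 and 42.4 FPKM in lines 1 and 3. EGR1, a zinc finger transcription factor, was at 117.5 against 15.3 and 26.8 FPKM. The log2 differences were 2.76 for FOS, 2.63 for JUN, 2.54 for EGR1, 2.37 for JUNB and 1.78 for DUSP1, a phosphatase that is itself an immediate early gene. DUSP1 belongs to the list of other feedback genes, and these 5 genes were picked after their values were seen. In the same list of ERK targets, CCND1 was at −1.18, MYC at −0.97 and EPHA2 at −0.91, and FOSL1 and IER5 were at 0.38 and 0.19. The list of other feedback genes and paralogs had a median of 0.68 in this line, with 3 of 11 above 1 (27.3%) and 0 below −1. The RAS, RAF, MEK and ERK genes of this line had a median of 0.16, and 0 of 12 lay beyond 1 in either direction. The 8 endoderm markers had a median of −0.31 in this line, with 0 beyond 1 in either direction. The higher fibroblast markers of line 2 are given above. The part of either set of markers in these differences was not tested.

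Without pXEN line 2, the number of the 10 genes called higher in pXEN cells than in pESCs rose from 1 to 5, adding DUSP6, SPRY2, SPRED2 and ETV5 to SPRED1, and the 4 lower calls did not change. In that fit, 26.5% of all tested genes were called higher and 28.9% lower. Against nESCs, 9 of the 10 were then called higher, with DUSP4 added, and 1 lower, SPRY1, beside 30.2% higher and 29.8% lower of all tested genes. Between pESCs and nESCs, a comparison of libraries that were all kept, 10 were called higher and 0 lower, beside 24.4% and 19.4% of all tested genes. Of the 6 nearest named neighbours of ETV5 in the Sscrofa11.1 annotation, SENP2, IGF2BP2, DGKG, CRYGS and TBCCD1 were listed on chromosome 13 in these files, and TRA2B, an immediate neighbour, on another unplaced scaffold. The median of all tested genes listed on chromosome 13 was −0.40 in pXEN line 2 against lines 1 and 3. Those of the other chromosomes listed lay between 0.00063 (chromosome 11) and 0.119 (chromosome 8). The chromosome 13 median was 0.46 for pXEN cells against nESCs and 0.40 for pXEN cells against pESCs, where ETV5 itself was at 5.70 and 0.70. For chromosome 16 the medians of these 2 comparisons were −0.73 and −0.05. ETV5 itself was not placed on a chromosome in these files, and the part of chromosome 13 in its differences was not tested.

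**Figure D4:**
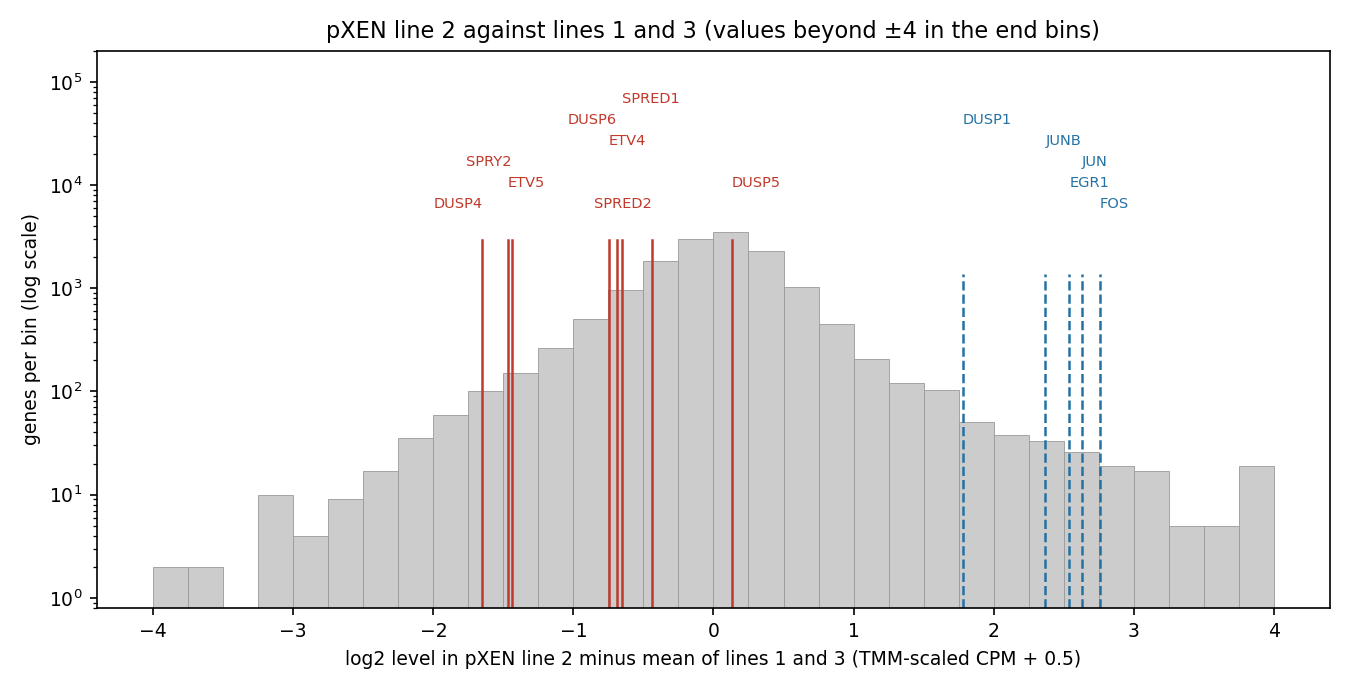
Distribution over 14888 genes of the log2 level in pXEN line 2 minus the mean of pXEN lines 1 and 3, as genes per bin on a log axis. Red lines mark the 8 feedback and ETV genes with at least 1 CPM, of which 7 lie left of 0, and dashed blue lines mark 5 immediate early genes picked after their values were seen, FOS, JUN, EGR1, JUNB and DUSP1, which lie between 1.78 and 2.76.

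The other genes of the pathway were examined by their place in it. Their counts are to be read against the shares of all tested genes given above, which in the fit of all 7 libraries were 28.3% higher and 26.2% lower for pXEN cells against nESCs, and 19.0% higher and 13.3% lower for pESCs against nESCs. Of 16 genes of the FGF family looked up, not all of which need encode receptor ligands, 13 were listed and 6 were tested. FGF19, a ligand of FGFR4, was at 97.7 and 131.5 FPKM in the pESC lines and was listed at 0 in the other 5 libraries. FGF17 was higher in pXEN cells than in pESCs (log2 1.65 ± 0.57, edgeR, adjusted p = 0.048), with 4.15, 2.90 and 7.30 FPKM in the pXEN lines and 1.80 and 1.24 FPKM in the pESC lines, and had no count in nESCs. FGF2, FGF9, FGF13 and FGF18 were called lower in pXEN cells than in both ESC types. FGF4, the epiblast ligand of the mouse blastocyst, had no count in any library.

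Most receptor tyrosine kinases were higher in pXEN cells and in pESCs than in nESCs. Of 16 receptor tyrosine kinases tested, 11 were called higher and 2 lower in pXEN cells than in nESCs, and 11 were higher and 0 lower in pESCs than in nESCs. These are 68.8% and 12.5% of the list in the first comparison and 68.8% and 0% in the second. FGFR4 was at 31.8, 38.5 and 33.8 FPKM in the pXEN lines, 13.3 and 15.2 FPKM in the pESC lines and 0.321 and 0.384 FPKM in the nESC lines. It was higher than in nESCs by 6.61 ± 0.20 in pXEN cells (adjusted p = 4.62e-07) and by 5.31 ± 0.20 in pESCs (adjusted p = 4.87e-06) on the log2 scale of the edgeR fit. FGFR3 was also highest in pXEN cells, at 82.9, 64.0 and 83.1 FPKM, against 22.2 and 19.7 in pESCs and 9.13 and 10.4 in nESCs. FGFR1 differed less, at 77.2 to 98.9 FPKM in pXEN cells, 72.6 and 77.5 in pESCs and 68.8 and 67.8 in nESCs, and was called for pXEN cells against nESCs (0.38 ± 0.12, adjusted p = 0.0267). It was also called higher in pXEN cells than in pESCs without pXEN line 2 (0.35, adjusted p = 0.00492). FGFR2 was lower in pXEN cells than in both ESC types. ERBB3, a receptor of neuregulins, was at 15.5 to 17.0 FPKM in pXEN cells and 14.7 and 16.1 in pESCs, with 2 and 0 counts in nESCs.

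Several genes of the cascade itself were also higher in pXEN cells than in nESCs. Of 12 tested genes encoding RAS, RAF, MEK, ERK and their scaffolds, 8 were called higher and 0 lower in pXEN cells than in nESCs. The log2 difference of MAPK3 (ERK1) was 0.78 ± 0.15 (edgeR, adjusted p = 0.00338). Between pESCs and nESCs, 3 were higher and 0 lower. Without pXEN line 2 these counts were 11 and 0 for pXEN cells against nESCs and 6 and 0 for pESCs against nESCs. The shares of all tested genes in that fit were 30.2% and 29.8%, and 24.4% and 19.4%. Leaving the line out also changed the filter, from 17447 to 17264 genes, the scaling and the shared estimate of spread, and their parts were not separated. MAP2K1, which encodes MEK1, a target of PD0325901, was at 17.7, 32.4 and 17.0 FPKM in the pXEN lines, 14.3 and 12.1 in the nESC lines and 22.5 and 27.0 in the pESC lines. It was not called in any of the 3 comparisons. Without pXEN line 2, its highest library, it was called higher in pESCs than in nESCs (0.90, adjusted p = 0.00127), higher in pXEN cells than in nESCs (0.39, adjusted p = 0.0455) and lower in pXEN cells than in pESCs (−0.51, adjusted p = 0.0149). MAP2K2, which encodes MEK2, was listed at 0 to 5 counts in the 7 libraries and was not tested.

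Among adaptors and exchange factors, 6 of 12 were called higher and 1 lower in pXEN cells than in nESCs, including FRS2, the docking protein of FGF receptors (1.16 ± 0.17, edgeR, adjusted p = 0.000633). Between pESCs and nESCs, 2 were higher and 1 lower, and 6 and 1 without pXEN line 2, where 24.4% and 19.4% of all tested genes were called. Of 6 RAS GTPase-activating proteins, 4 were higher and 2 lower in pXEN cells than in nESCs.

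Other feedback genes and paralogs did not all share the low level in nESCs. Of 11 tested, 4 were called higher and 0 lower in pXEN cells than in nESCs, and 4 were higher and 1 lower in pESCs than in nESCs. These are 36.4% and 0% of the list in pXEN cells and 36.4% and 9.09% in pESCs. The counts were 5 and 2, and 5 and 3, without pXEN line 2, where the shares of all tested genes were 30.2% and 29.8%, and 24.4% and 19.4%. DUSP9, an ERK phosphatase of the same subfamily as DUSP6, was at 126.2, 198.8 and 124.4 FPKM in the pXEN lines and below 0.5 FPKM in every ESC line. It was higher in pXEN cells by 9.69 ± 0.38 than in nESCs (edgeR, adjusted p = 1.25e-06) and by 8.36 ± 0.34 than in pESCs (adjusted p = 2.46e-06) on the log2 scale. FLRT3, a membrane protein that binds FGF receptors, was at 124.3, 203.7 and 129.3 FPKM in the pXEN lines, 18.7 and 22.1 in the pESC lines and 1.88 and 3.45 in the nESC lines. Unlike the 7 genes above, DUSP9 and FLRT3 were higher in pXEN line 2 than in lines 1 and 3, by 0.68 and 0.70.

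IL17RD, which encodes the FGF antagonist Sef, was highest in pESCs, at 26.2 and 29.8 FPKM against 7.09, 7.73 and 7.74 in pXEN cells and 1.41 and 3.05 in nESCs, and all 3 comparisons called it. ETV1, the closest paralog of ETV4 and ETV5, had another order. It was at 6.40 and 5.62 FPKM in pESCs, 1.91 and 1.46 in nESCs and 0.521, 1.61 and 0.637 in pXEN cells. Its difference between pXEN cells and nESCs was −0.86 ± 0.43 (edgeR, adjusted p = 0.126). In the fit without pXEN line 2, its highest pXEN library, it was −1.54 and was called (adjusted p = 0.000364). DUSP7 was at 27.7 and 26.3 FPKM in nESCs, within the range of the other cells, and DUSP1 was at 19.4 and 20.5 FPKM there, above both pESC lines.

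The wider set of ERK target genes was mixed. Of 17 tested, 5 were called higher and 3 lower in pXEN cells than in nESCs, and 5 were higher and 2 lower in pESCs than in nESCs. These are 29.4% and 17.6% of the list in pXEN cells and 29.4% and 11.8% in pESCs, so the share called higher in pXEN cells was near the 28.3% of all tested genes. PHLDA1 was higher in both, by 3.42 ± 0.38 in pXEN cells (edgeR, adjusted p = 0.000158) and 2.15 ± 0.38 in pESCs (adjusted p = 0.00414), and EPHA4 and IER3 were also called higher in both. MYC and CCND1 were called higher in pESCs than in nESCs and lower in pXEN cells than in pESCs. FOS, EGR1 and JUNB were not called lower in nESCs than in either other type. FOS was at 16.0 and 29.0 FPKM in the nESC lines and at 4.32 and 3.29 FPKM in the pESC lines. JUN was at 49.5 and 56.1 FPKM in nESCs and was lower in pESCs (−3.10 ± 0.89, adjusted p = 0.0306). With pXEN line 2 left out, 6 were higher and 5 lower in pXEN cells than in nESCs, against 30.2% and 29.8% of all genes tested in that fit. In pESCs, 8 were then higher and 5 lower than in nESCs, against 24.4% and 19.4%, and FOS and JUNB were among the lower ones (adjusted p = 0.000827 and 3.1e-05 in that edgeR fit).

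Of 13 tested ETS-family partners and repressors, 10 were called higher and 0 lower in pXEN cells than in nESCs (1 lower without pXEN line 2, where 29.8% of all tested genes were lower), and 3 were higher and 2 lower in pESCs than in nESCs. ETS1 and ETS2, activators phosphorylated by ERK, were higher in both, by 2.88 ± 0.52 and 1.76 ± 0.25 in pXEN cells and by 2.87 ± 0.54 and 1.71 ± 0.26 in pESCs on the log2 scale. The epithelial factor ELF3 was higher in pXEN cells than in nESCs by 4.75 ± 0.52 and than in pESCs by 4.66 ± 0.51.

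**Figure D5:**
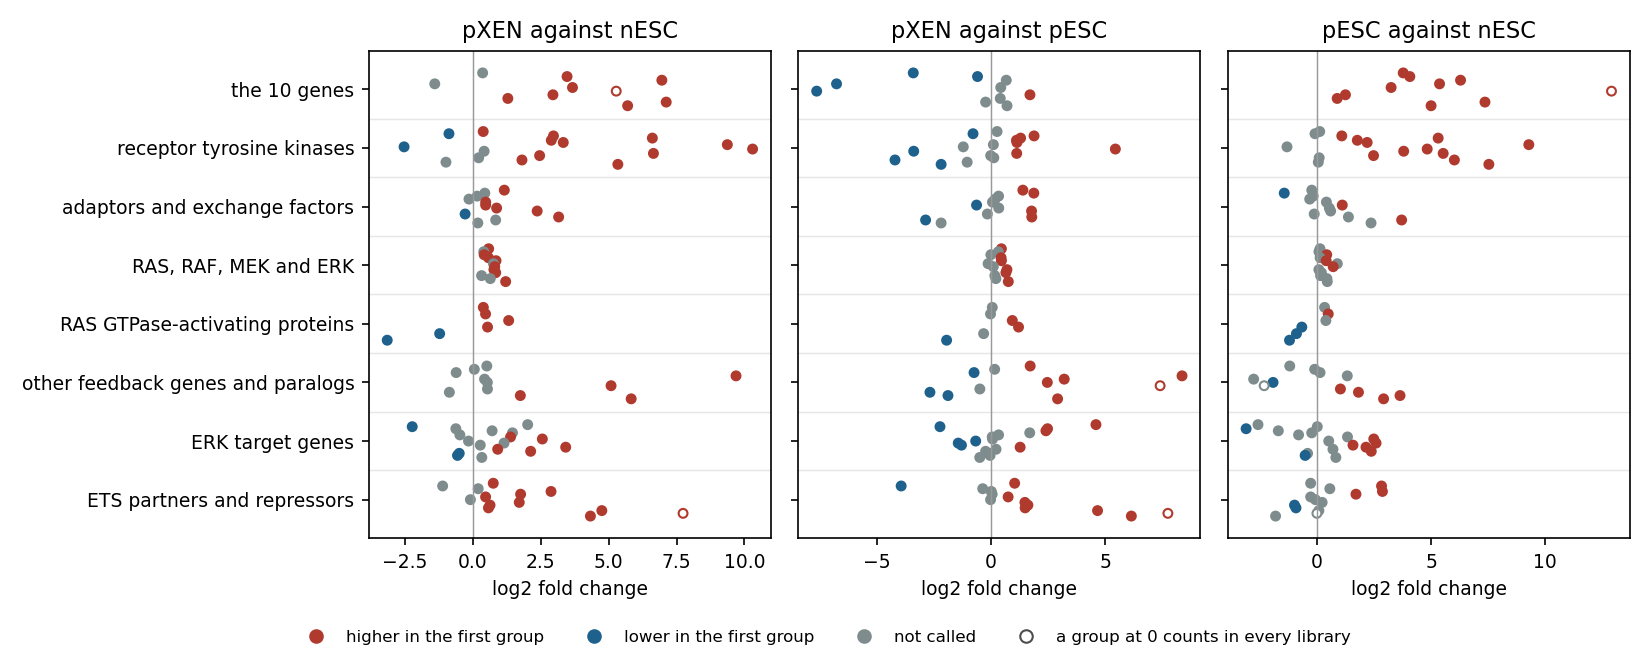
Log2 fold changes of the 10 feedback and ETV genes and of the tested genes of 7 lists ordered by their role in the pathway, in 3 comparisons whose horizontal scales differ. Colours mark calls of the edgeR test, and hollow points mark genes with no count in a whole group, whose estimates are not measured sizes. The RAS, RAF, MEK and ERK genes lie close to 0, while receptors and the 10 genes spread to high values against nESCs.

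Across the 7 libraries the 10 genes formed different pairs of similar profiles. Pearson's r of log2(FPKM + 1) was 0.997 for SPRY2 and ETV5, 0.986 for DUSP6 and ETV5, 0.981 for DUSP5 and ETV4 and 0.977 for ETV4 and ETV5. SPRY1, SPRY4 and DUSP4 resembled each other, with r of 0.99 for SPRY1 and SPRY4 and 0.969 for DUSP4 and SPRY4. The lowest value was −0.23, for SPRY1 and SPRED1. These values describe 7 libraries that fall into 3 groups, so they mostly compare the group means.

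The same measure was taken between DUSP6, ETV4 and SPRED1 and the 7145 genes with at least 10 FPKM in a library. ACTN1, an actin crosslinker, was most like DUSP6 (r = 0.998), followed by LEPREL4, PMF1, LTBP1 and AARS. ERP44, a chaperone of the secretory pathway, was most like ETV4 (0.997), followed by SLC38A5, TRAF3IP2, SVIL and CARS. PDIA5, a protein disulfide isomerase, was most like SPRED1 (0.997), followed by ANKH, MGRN1, GRN and GNAI1. An r of at least 0.99 was reached by 29, 18 and 27 genes, so many genes had nearly the same profile. The 5 genes most like DUSP6 shared 0 with those found with a pseudocount of 0.1, and 3 of 5 were shared for ETV4 and for SPRED1.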

How the data were processed

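The authors deposited 2 tables for the 7 libraries: raw read counts per gene, and FPKM, in which the authors scaled fragments by gene length and library total. The strand-specific libraries came from RNA depleted of rRNA. The submitters' processing notes name HISAT2 2.0.5, featureCounts 1.5.0-p3, edgeR 3.22.5 and the Sscrofa10.2 build. 0 columns of per-sample values were left unused. Counts were tested with edgeR 4.0.16 (R 4.3.3): filterByExpr, TMM factors, glmQLFit and glmQLFTest on a model of 3 groups with 4 residual degrees of freedom, and Benjamini-Hochberg adjustment over 17447 genes. The biological coefficient of variation was 0.223. SEs were derived from the F statistic, and 95% intervals from the t distribution with the moderated degrees of freedom. Ratios of summed CPM carry exact binomial counting intervals. Alternatives used DESeq2 1.42.0, limma 3.58.1 on log2 FPKM, other scalings, other filters and the omission of each library. Scripts were tested on simulated data. No library was a duplicate of another. The 10 genes and all lists were chosen with earlier results of these data known. The genes named are the 10 genes, the RAF, MEK and ERK kinases, the other feedback genes, the ERK targets, up to 2 further genes of a list per comparison and direction with the largest called change, and the 5 genes of closest profile. FGF2, FGF4, FGF9, FGF18, FGFR1, FGFR4, FRS2 and ETS2 were named beyond this rule, after their values were seen. Gene symbols came from the deposited tables or a symbol table. Passages and media followed the labels and the study's methods. Some genes of the lists are not reported here by name.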

Additional observations from a re-analysis of the deposited data

How the results depend on the processing

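Over 30 pairs of a gene and a comparison, 18 had a value in all 17 alternatives and the others in at least 15, since a filter can drop a gene. 20 pairs kept their direction and their side of the threshold in every alternative that gave a value. Of the 496 single results, 482 kept both, 7 passed the threshold newly, 5 lost it and 2 changed direction without being called in either fit. These were DUSP4 in pXEN cells against nESCs with the replicate number as a block (−0.028, adjusted p = 0.966) and ETV4 in pXEN cells against pESCs without pESC line 1 (0.024, adjusted p = 0.968, with a range of −0.478 to 0.024 over the omissions of a library). A minimum of 10 counts in every library drops genes absent from a cell type by design, and left 5 genes higher in pXEN cells than in nESCs, 2 lower in pXEN cells than in pESCs and 6 higher in pESCs than in nESCs. DESeq2 called 2 higher in pXEN cells than in pESCs. Leaving out each library in turn gave 0 to 1 lower in pXEN cells than in nESCs and 1 to 5 higher in pXEN cells than in pESCs. Deviations of same-numbered lines from their group means correlated at −0.01 to 0.04, so the number gave no sign of a pairing. This does not test which nESC line a pESC line came from. With the replicate block the counts of the 10 genes called were 8 and 0, 1 and 4, and 10 and 0, as without it.

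Over the whole table, the minimum of 10 counts left 2771 genes lower in pXEN cells than in pESCs (4261 otherwise) and 2056 higher in pESCs than in nESCs (3308 otherwise). Leaving out a library gave 2037 to 4213 higher and 928 to 3353 lower in pESCs than in nESCs (3308 and 2313 otherwise), and 2706 to 4572 higher in pXEN cells than in pESCs (4168 otherwise). Scaling by library totals alone moved the median of all genes to −0.18 for pXEN cells against nESCs and −0.19 against pESCs, and the share of calls that were higher in pXEN cells than in pESCs from 49.4% to 38.9%. Upper-quartile scaling moved the median to −0.16 for pXEN cells against nESCs. Under these scalings no call of the 10 genes changed. Leaving out pXEN line 2 for the pathway lists was chosen after the data were seen. SPRY1, SPRY4 in pXEN cells, and DUSP6 and ETV4 in nESCs rest on counts near the floor of 3, where depth limits the size of a difference.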
